A study of Vitis vinifera with 72 samples.

Results

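Cinnamate 4-hydroxylase (C4H) and 4-coumarate-CoA ligase (4CL) genes were followed in the pericarp (skin and flesh) of ripening grape berries. They are 7 of the 29971 gene IDs in the expression table and were chosen by ID, not by their values. The 3 C4H IDs were VIT_06s0004g08150, VIT_11s0065g00350 and VIT_11s0078g00290. The 4 4CL IDs were VIT_16s0039g02040, VIT_11s0052g01090, VIT_02s0025g03660 and VIT_16s0050g00390. The table pairs no ID with a gene name, and 0 of the 7 IDs matched the RefSeq gene table used here. The enzyme names are therefore those of the selection, and neither sequences nor genome positions are given. Markers of the labelled tissue could not be checked for the same reason.

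Berries of the grapevine (Vitis vinifera) cultivars Sangiovese and Cabernet Sauvignon were profiled by RNA-seq at mid-ripening (MR, BBCH code 83, when berries colour) and pre-veraison (PV, BBCH code 79, before ripening begins). They came from the Italian areas Bolgheri, Montalcino and Riccione in 2012 and 2011. All combinations were sampled, giving 24 groups of 3 libraries and 72 libraries in all. The labels do not say whether the 3 libraries of a group came from separate plants, so the p-values measure the spread between these libraries, which may be partly technical. Within a cultivar, stage and year, an area is 1 group, and the labels give no sequencing batch, so a season or an area cannot be told apart from whatever else its samples shared. In whole pericarp, fewer cells of a type and less RNA per cell cannot be told apart either.

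C4H and 4CL catalyse the middle steps of the general phenylpropanoid pathway. Phenylalanine ammonia-lyase (PAL) turns phenylalanine into cinnamic acid, C4H hydroxylates it to p-coumaric acid, and 4CL joins that acid to coenzyme A. The product, p-coumaroyl-CoA, is the shared substrate of chalcone synthase (CHS), the entry to flavonols, tannins and the anthocyanins of coloured skin, and of stilbene synthase (STS), which makes resveratrol. It also feeds lignin synthesis, and in Arabidopsis separate 4CL isoenzymes serve mainly lignin or mainly flavonoid synthesis. Which branch each of the 4 grapevine 4CL IDs serves is not known from these files.

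Levels are FPKM, in which fragment numbers are corrected for the length of the transcript and the mapped total of the library, so that genes can be compared within a library. The total FPKM per library lay between 813505 and 1014766. Absolute read numbers are not given, but the smallest steps between low values gave relative depths of 0.523 to 2.24, both extremes in Cabernet Sauvignon PV berries from Bolgheri in 2012. The lowest correlation between libraries of a group was 0.982 across genes on the log2 scale, and no pair of libraries held identical values (0 pairs). Differences below are on the log2(FPKM + 1) scale, with a standard error (SE) and a Benjamini-Hochberg adjusted p from limma over the 20443 genes that averaged at least 1 FPKM in at least 1 group. The threshold was 0.05.

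The 3 C4H genes lay far apart in level. VIT_06s0004g08150 was the main C4H transcript in every group, with 20.7, 69.1 and 191 FPKM as its lowest, median and highest library. VIT_11s0065g00350 had a median of 1.74 FPKM, with a lowest value of 0.0286 and a highest of 47.7. It averaged at least 10 FPKM in 2 groups, both Sangiovese berries from Bolgheri in 2012. VIT_11s0078g00290 had a median of 0.0665 FPKM and was listed at 0 in 15 of the 72 libraries. It averaged at least 1 FPKM in 2 groups, again the Sangiovese groups from Bolgheri in 2012, and so entered the tests only through them. Every other group mean was at or below 0.354 FPKM.

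The 4 4CL genes lay closer together. The lowest, median and highest libraries had 12.8, 47.7 and 150 FPKM for VIT_16s0050g00390. They had 12.7, 22.98 and 85.9 FPKM for VIT_02s0025g03660. VIT_16s0039g02040 ran between 10.6 and 59.1 FPKM with a median of 21.1. VIT_11s0052g01090 ran between 1.46 and 82.6 FPKM with a median of 17.2, the widest span of the 4 on a ratio scale. All 4 genes were therefore measured in all 72 libraries, and 3 of them averaged at least 10 FPKM in all 24 groups, against 15 groups for VIT_11s0052g01090.

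**Figure D1:**
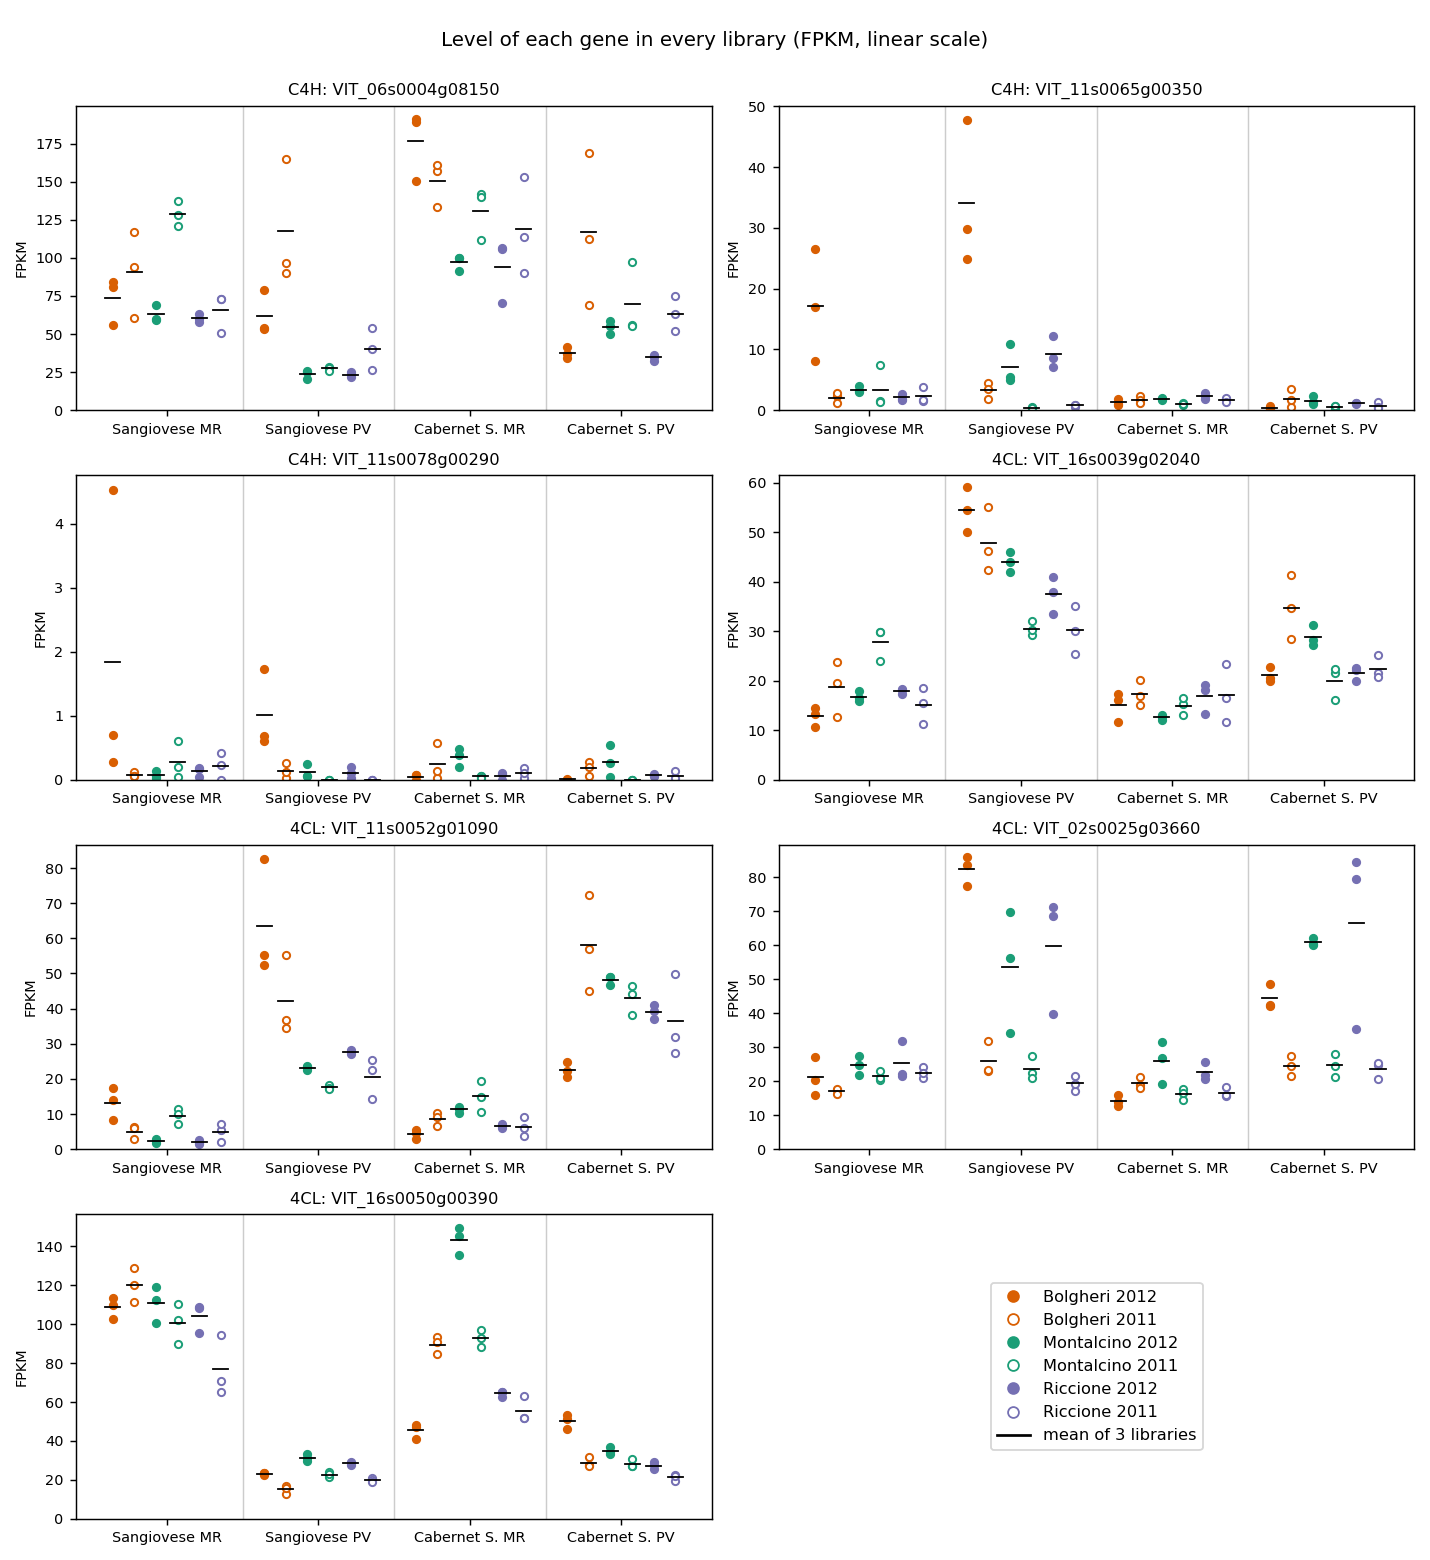
FPKM of each of the 7 genes in every library (linear axes, each from 0). Circles are libraries, filled for 2012 and open for 2011, coloured by area, and black lines are group means of 3. VIT_16s0050g00390 averages 92.8 at MR and 27.7 at PV, VIT_11s0052g01090 averages 7.45 at MR and 36.8 at PV, and the 4 highest groups of VIT_11s0065g00350 are all Sangiovese of 2012.

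The order of the 24 groups differed from gene to gene. VIT_06s0004g08150 was highest in Cabernet Sauvignon MR berries from Bolgheri in 2012 (177 ± 22.98 FPKM, SD, n = 3). It was lowest in Sangiovese PV berries from Riccione in 2012 (23.4 ± 1.69), a 7.56-fold range of group means. The top group of VIT_16s0050g00390 was Cabernet Sauvignon MR from Montalcino in 2012 (144 ± 7.16), and its bottom group was Sangiovese PV from Bolgheri in 2011 (15.2 ± 2.07), a 9.47-fold range. By contrast, VIT_11s0065g00350, VIT_16s0039g02040, VIT_11s0052g01090 and VIT_02s0025g03660 all had their highest mean in the same group, Sangiovese PV from Bolgheri in 2012. There they averaged 34.2 ± 12.02, 54.5 ± 4.54, 63.4 ± 16.7 and 82.4 ± 4.35 FPKM. VIT_11s0078g00290 was highest in the MR group of the same cultivar, area and year (1.84 ± 2.34), where its libraries had 4.53, 0.703 and 0.281 FPKM and the first set the mean.

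Most neighbours in these orders did not differ beyond their spread. Of the 23 steps between adjacent groups, the gap exceeded the larger of both SDs in 9 for VIT_16s0050g00390, 6 for VIT_06s0004g08150, 4 each for VIT_16s0039g02040 and VIT_11s0052g01090, 3 each for VIT_11s0065g00350 and VIT_02s0025g03660, and 2 for VIT_11s0078g00290. For VIT_02s0025g03660 1 step stood out: 44.4 ± 3.73 FPKM in Cabernet Sauvignon PV berries from Bolgheri in 2012 was 18.4 above the next group, and the 6 PV groups of 2012 were the 6 highest of all. For VIT_11s0065g00350 the step below the top group was 16.9 FPKM and the step below Sangiovese PV from Montalcino in 2012 was 3.77 FPKM.

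Within the 4CL family, the leading gene changed with the stage. VIT_16s0050g00390 held 66.3% ± 6.64 of the summed 4CL FPKM at MR and 20.7% ± 6.67 at PV (SD, n = 36 each). Its share lay between 53.3% and 77.4% in the MR libraries and between 8.76% and 36.9% in the PV libraries, with no overlap. The other 3 shared most of the PV total: VIT_02s0025g03660 had 15.4% at MR and 28.9% at PV, VIT_11s0052g01090 5.47% at MR and 26.4% at PV, and VIT_16s0039g02040 12.9% at MR and 24.1% at PV. The summed level itself overlapped between stages, at 138 ± 32.2 FPKM at MR and 139.7 ± 38.6 FPKM at PV. These sums and shares were not tested.

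Within the C4H family, VIT_06s0004g08150 held 96.1% ± 5.32 of the summed FPKM at MR and 91.3% ± 12.7 at PV. The remainder was almost all VIT_11s0065g00350, and it was large in Sangiovese PV berries of 2012 alone among PV groups. In those berries VIT_11s0065g00350 held 34.7% ± 3.03 of the C4H sum in Bolgheri, 22.8% in Montalcino (16.2% to 34.4%) and 28.1% ± 7.07 in Riccione. In 2011 its shares were 2.89% ± 1.54, 1.27% ± 0.295 and 1.96% ± 0.350 in the same areas. Sangiovese MR berries from Bolgheri in 2012 had 17.7% ± 5.64. In Cabernet Sauvignon it averaged 1.43% at MR and 1.67% at PV (n = 18 each).

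**Figure D2:**
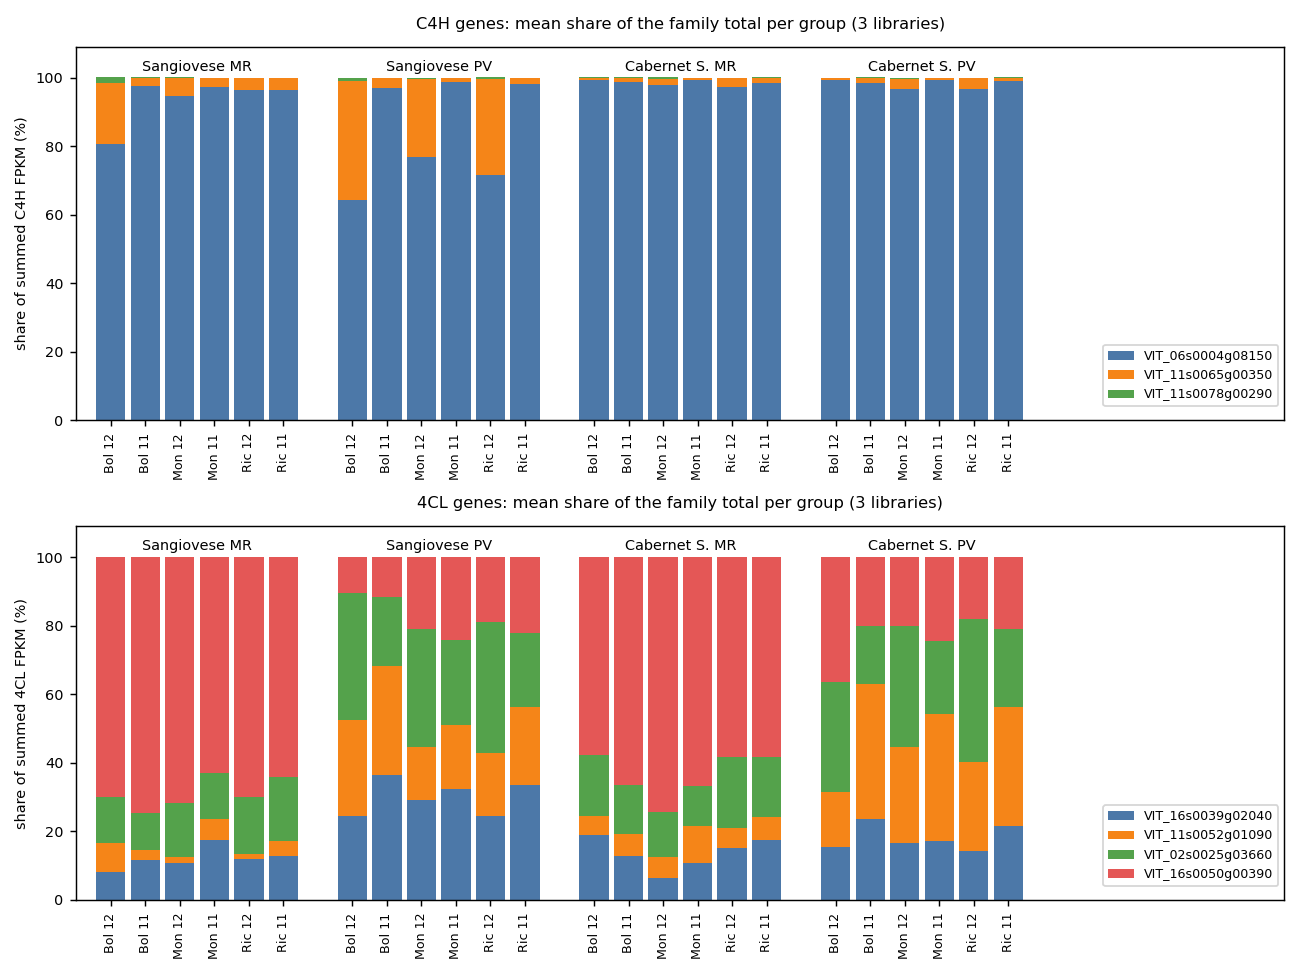
Mean share of each gene in the summed FPKM of its family (percent, vertical axis) for the 24 groups (horizontal axis, 3 libraries each), C4H above and 4CL below. The VIT_16s0050g00390 part takes most of each MR bar and a smaller part of each PV bar, and the VIT_11s0065g00350 part is wide in Sangiovese PV bars of 2012.

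The first comparison asked how the genes differ between MR and PV berries. In MR berries the main C4H gene VIT_06s0004g08150 and the 4CL gene VIT_16s0050g00390 were higher, and the 4CL genes VIT_11s0052g01090, VIT_16s0039g02040 and VIT_02s0025g03660 were lower. The C4H genes VIT_11s0065g00350 and VIT_11s0078g00290 did not pass the test. The 2 higher and 3 lower calls stand against 33.4% of all tested genes higher and 58.1% lower at MR. The median of all genes was -0.23, so values relative to that median are given as well.

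VIT_06s0004g08150 had 50.5, 99.8 and 191 FPKM as the lowest, median and highest of 36 MR libraries, against 20.7, 50.9 and 169 FPKM in the 36 PV libraries. Its mean was 104 ± 39.2 FPKM at MR and 55.9 ± 36.2 FPKM at PV (SD). It was higher at MR in 11 of 12 matched groups of cultivar, area and year, and the libraries did not overlap in 8 of them (log2 difference 1.02, SE 0.069, adjusted p = 1.09e-19). Relative to the median of all genes the difference was 1.24. The exception was Sangiovese from Bolgheri in 2011, with 60.8, 117 and 93.8 FPKM at MR against 90.4, 165 and 96.9 FPKM at PV, values that overlap.

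VIT_16s0050g00390 had 40.9, 94.9 and 150 FPKM as the lowest, median and highest MR libraries, against 12.8, 27.2 and 53.3 FPKM in PV libraries. The difference was 1.70 on the log2 scale (SE 0.027, adjusted p = 8.72e-49), or 1.92 relative to the median of all genes. It was higher at MR in 11 of 12 matched groups, none of which overlapped. The exception was Cabernet Sauvignon from Bolgheri in 2012, where MR berries had 48.2, 47.3 and 40.9 FPKM against 51.2, 53.3 and 46.1 FPKM in PV berries. There the ranges met and the order turned round.

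The 4CL genes that fell did so to different degrees. VIT_11s0052g01090 had 1.46, 6.62 and 19.5 FPKM as the lowest, median and highest MR libraries, against 14.2, 35.5 and 82.6 FPKM in PV libraries. It was lower at MR in 12 of 12 matched groups with no overlap in any (log2 difference -2.25, SE 0.078, adjusted p = 1.4e-32; -2.03 relative to the median of all genes). The 3 MR libraries of Sangiovese from Riccione in 2012 held 1.46, 1.89 and 2.71 FPKM, against 27.2, 27.6 and 28.2 FPKM in the PV libraries of that cultivar, area and year. The stage difference of VIT_11s0052g01090 was the largest among the 7 genes in either direction.

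VIT_16s0039g02040 had 10.6, 16.5 and 29.9 FPKM as the lowest, median and highest MR libraries, against 16.1, 30.1 and 59.1 FPKM in PV libraries. It was lower in 12 of 12 matched groups, 9 of them without overlap (log2 difference -0.88, SE 0.051, adjusted p = 1.04e-22; -0.65 relative to the median). VIT_02s0025g03660 had 12.7, 20.6 and 31.8 FPKM at MR, against 17.3, 33.1 and 85.9 FPKM at PV. It was lower in 11 of 12 matched groups, 10 of the 12 without overlap (log2 difference -0.85, SE 0.061, adjusted p = 8.46e-19; -0.63 relative to the median). The exception was Sangiovese from Riccione in 2011, with 24.1, 20.8 and 22.5 FPKM at MR against 17.3, 21.6 and 19.3 FPKM at PV. Another scaling moved the split of all calls but kept the 5 directions: 36.5% of all called genes were higher at MR as deposited, 46.9% when libraries were scaled by median of ratios and 54.8% when quantile-normalized. The median of all genes was then -0.055 and 0.086.

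For the minor C4H genes the stage difference depended on the processing. VIT_11s0065g00350 averaged 3.37 ± 4.92 FPKM at MR and 5.10 ± 9.81 FPKM at PV (log2 difference 0.084, SE 0.10, adjusted p = 0.428). It was called higher at MR with a pseudocount of 0.1 (0.41), under median-of-ratios scaling (0.22) and under quantile normalization (0.54), and was -0.064 and not called with a pseudocount of 5. VIT_11s0078g00290 averaged 0.291 FPKM at MR and 0.164 FPKM at PV (adjusted p = 0.182), and was called higher at MR with a pseudocount of 0.1 (0.39) and under quantile normalization (0.31).

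**Figure D3:**
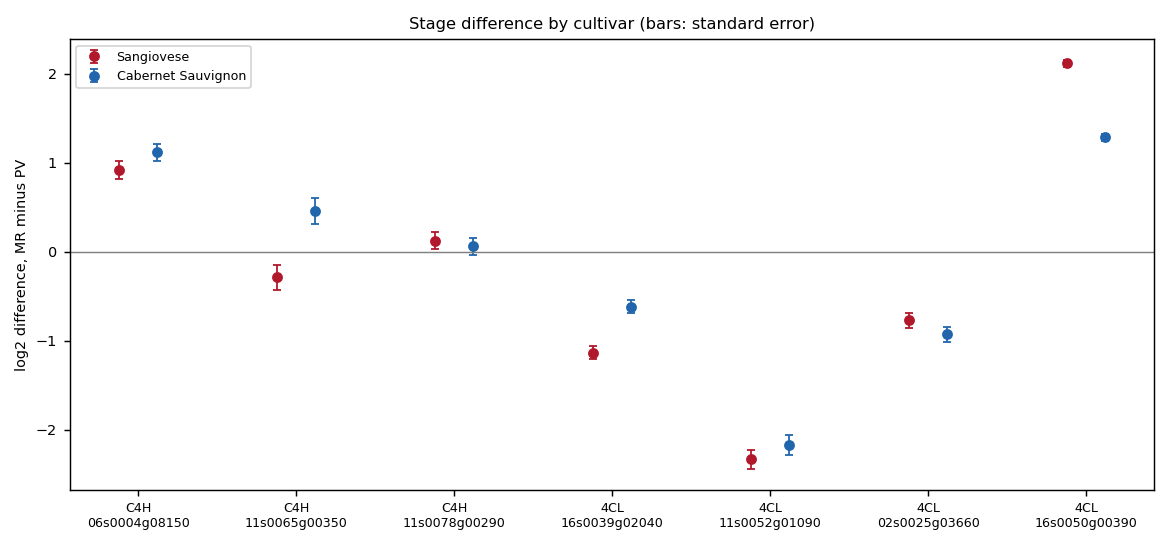
Stage difference, MR minus PV, of each gene in Sangiovese (red) and Cabernet Sauvignon (blue) on the log2(FPKM + 1) scale, with standard errors as bars. VIT_16s0050g00390 stands at 2.12 in Sangiovese and 1.28 in Cabernet Sauvignon, and VIT_11s0052g01090 stands below -2 in both.

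The second question was whether stage differences depend on the cultivar. In Sangiovese 2 of the 7 genes were higher at MR (33.3% of all genes) and 3 lower (54% of all genes). In Cabernet Sauvignon 3 were higher (30.3% of all genes) and the same number lower (57.8% of all genes). The cultivar-by-stage term tests the difference itself, and it was positive for 1 gene (41.2% of all genes) and negative for 2 (25.3% of all genes).

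VIT_16s0050g00390 was the positive one. Sangiovese averaged 104 ± 16.1 FPKM at MR and 23.5 ± 5.63 FPKM at PV, whereas Cabernet Sauvignon averaged 81.9 ± 33.6 FPKM at MR and 31.9 ± 9.57 FPKM at PV (SD, n = 18 each). The stage difference was 2.12 in Sangiovese and 1.28 in Cabernet Sauvignon (log2 difference 0.83, SE 0.053, adjusted p = 1.19e-19). Without the 4 groups from Bolgheri in 2012 the term was 0.54 and stayed past the threshold (adjusted p = 1.92e-10). Sangiovese was thus higher at MR and lower at PV than Cabernet Sauvignon.

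VIT_16s0039g02040 fell more in Sangiovese. It averaged 18.2 ± 5.58 FPKM at MR and 40.7 ± 9.85 FPKM at PV there, against 15.7 ± 3.21 FPKM at MR and 24.8 ± 6.15 FPKM at PV in Cabernet Sauvignon (log2 difference -0.52, SE 0.10, adjusted p = 1.32e-05). For VIT_11s0065g00350 the term was negative as well (log2 difference -0.75, SE 0.20, adjusted p = 0.00116): the stage difference was -0.29 in Sangiovese, where it missed the threshold (adjusted p = 0.0563), and 0.46 in Cabernet Sauvignon (adjusted p = 0.00305). The Cabernet Sauvignon call was lost with a pseudocount of 5, and VIT_11s0065g00350 averaged only 1.65 FPKM at MR and 1.03 FPKM at PV there. With the group means as the unit, the terms of VIT_11s0065g00350 and VIT_16s0039g02040 missed the threshold (adjusted p = 0.479 and 0.101), and 8.23% of all genes had a negative term. Without Bolgheri 2012 that of VIT_16s0039g02040 was -0.31 (adjusted p = 0.0138), and under median-of-ratios scaling the term of VIT_06s0004g08150 passed as well (-0.31, adjusted p = 0.0377). Of all cultivar-by-stage calls, 61.9% were positive as deposited, 49.1% with median-of-ratios scaling and 48.2% when quantile-normalized. The split was 38.1%, 46.8% and 54.9% higher for the stage calls in Sangiovese and 34.4%, 46.8% and 55.1% for those in Cabernet Sauvignon.

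The cultivars were then compared within each stage. At PV, Sangiovese was higher than Cabernet Sauvignon in 2 of the 7 genes (39.2% of all genes) and lower in 3 (34.8% of all genes). The higher ones were the minor C4H VIT_11s0065g00350 and the 4CL gene VIT_16s0039g02040, and the lower ones were the main C4H VIT_06s0004g08150 and the 4CL genes VIT_11s0052g01090 and VIT_16s0050g00390. VIT_02s0025g03660 and VIT_11s0078g00290 did not pass (adjusted p = 0.632 and 0.254).

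VIT_16s0039g02040 was the steadiest of these. At PV it had 25.4, 41.5 and 59.1 FPKM as the lowest, median and highest Sangiovese libraries, against 16.1, 22.5 and 41.4 FPKM in Cabernet Sauvignon. Sangiovese was higher in all 6 matched areas and years, with no overlap in any of them (log2 difference 0.69, SE 0.071, adjusted p = 1.53e-12). VIT_11s0065g00350 had 0.297, 4.73 and 47.7 FPKM in Sangiovese libraries, against 0.0286, 0.863 and 3.48 FPKM in Cabernet Sauvignon. Sangiovese was higher in 5 of 6 matched groups and separate in 3, the 3 of 2012 (log2 difference 1.53, SE 0.14, adjusted p = 6.87e-14).

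Of the lower genes, VIT_06s0004g08150 averaged 49.1 ± 37.8 FPKM in Sangiovese and 62.8 ± 34.2 FPKM in Cabernet Sauvignon at PV (log2 difference -0.49, SE 0.098, adjusted p = 1.47e-05). VIT_11s0052g01090 averaged 32.4 ± 17.9 FPKM in Sangiovese and 41.2 ± 12.96 FPKM in Cabernet Sauvignon (log2 difference -0.43, SE 0.11, adjusted p = 0.000551). Sangiovese was lower in 4 of 6 matched groups for VIT_06s0004g08150 and in 5 of 6 for VIT_11s0052g01090. VIT_16s0050g00390 averaged 23.5 ± 5.63 FPKM in Sangiovese and 31.9 ± 9.57 FPKM in Cabernet Sauvignon, lower in 5 of 6 matched groups (log2 difference -0.41, SE 0.038, adjusted p = 2.84e-14). None of these 3 passed with group means as the unit (adjusted p = 0.0982, 0.372 and 0.107), where 19% of all genes were lower. Without Bolgheri 2012 the PV difference was 0.89 for VIT_11s0065g00350 and -0.80 for VIT_11s0052g01090.

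At MR, 4 genes were higher in Sangiovese (46.7% of all genes) and 2 lower (25.7% of all genes). VIT_16s0050g00390 was now higher, with 65.2, 109 and 129 FPKM as the lowest, median and highest Sangiovese libraries, against 40.9, 75.0 and 150 FPKM in Cabernet Sauvignon (log2 difference 0.42, SE 0.038, adjusted p = 1.34e-14). Its direction was thus opposite at the 2 stages, which is the cultivar-by-stage term above. VIT_11s0065g00350 was higher in Sangiovese again (log2 difference 0.78, SE 0.14, adjusted p = 3.26e-06), and VIT_06s0004g08150 and VIT_11s0052g01090 were lower again (-0.69 and -0.59, adjusted p = 1.31e-08 and 4.48e-06). VIT_06s0004g08150 had 80.4 ± 27.6 FPKM in Sangiovese and 128 ± 34.5 FPKM in Cabernet Sauvignon, lower in 6 of 6 matched groups, 5 of them separate.

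The other MR calls were small. VIT_16s0039g02040 (0.18, adjusted p = 0.0253) and VIT_02s0025g03660 (0.21, adjusted p = 0.0289) were both higher in Sangiovese, but neither passed under median-of-ratios scaling (0.064 and 0.094) or quantile normalization (0.059 and 0.094). For VIT_16s0039g02040, Sangiovese was higher in 4 of 6 matched areas and years. Only Montalcino 2011 passed by itself (0.86), with 27.9 FPKM in Sangiovese and 14.9 FPKM in Cabernet Sauvignon. Leaving out 1 library ended the call of VIT_16s0039g02040 for 5 of the 72 libraries: Sangiovese MR replicate 2 from Bolgheri in 2011, replicate 2 from Riccione in 2011, and Cabernet Sauvignon MR replicate 1 from Riccione in 2011, replicate 3 from Riccione in 2012 and replicate 1 from Bolgheri in 2012 (largest adjusted p = 0.0702). For VIT_02s0025g03660 3 libraries did so: Sangiovese MR replicate 1 from Bolgheri in 2012, replicate 3 from Riccione in 2012 and Cabernet Sauvignon MR replicate 2 from Montalcino in 2012 (largest adjusted p = 0.0646). Of all MR calls, 64.5% were higher in Sangiovese as deposited, 50.3% with median-of-ratios scaling and 48.9% when quantile-normalized. With group means as the unit, 1 of the 6 genes passed, VIT_06s0004g08150, against 26.6% of all genes higher and 13% lower. Without Bolgheri 2012 the MR difference of VIT_11s0065g00350 was 0.36, that of VIT_11s0052g01090 -0.99, that of VIT_16s0050g00390 0.26 and that of VIT_02s0025g03660 0.14, no longer past the threshold.

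The cultivar difference was not the same in every environment, an environment being an area in a year. The F-test of cultivar by environment passed for 7 of 7 genes at PV (68.1% of all genes) and for 6 of 7 at MR (67.2% of all genes), the exception being VIT_02s0025g03660 (adjusted p = 0.193). Berries from Bolgheri in 2012 stood apart in this comparison. There Sangiovese was higher in 6 genes at PV (35.6% of all genes) and lower in 1 (28.5% of all genes), and at MR it was higher in 5 (31.5% of all genes) and lower in 1 (27.4% of all genes). The higher ones include VIT_11s0078g00290 at both stages, which entered the tests through these Sangiovese groups. That entry favoured its F-tests of cultivar by environment as well.

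The largest cultivar difference belonged to the minor C4H VIT_11s0065g00350. Sangiovese PV berries from Bolgheri in 2012 had 29.8, 24.9 and 47.7 FPKM, against 0.664, 0.0286 and 0.155 FPKM in Cabernet Sauvignon (log2 difference 4.75, SE 0.35, adjusted p = 3.83e-17). At MR the libraries had 26.6, 17.1 and 8.07 FPKM in Sangiovese, against 0.891, 1.87 and 1.06 FPKM in Cabernet Sauvignon (log2 difference 2.88, SE 0.35, adjusted p = 5.75e-10). All 6 Sangiovese libraries exceeded all 6 of Cabernet Sauvignon. The PV difference ran between 2.85 and 6.82 over the alternatives, which include pseudocounts of 5 and 0.1.

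The other C4H genes are given beside it. For VIT_11s0078g00290 the Sangiovese libraries had 0.678, 0.611 and 1.73 FPKM at PV and 4.53, 0.703 and 0.281 FPKM at MR, against 0, 0 and 0.0126 FPKM at PV and 0, 0.0673 and 0.0802 FPKM at MR in Cabernet Sauvignon. Both differences passed (0.96 and 1.13, adjusted p = 0.000257 and 2.68e-05), but its calls were favoured by that entry. The MR value rests on replicate 1, without which it was 0.49. The main C4H VIT_06s0004g08150 went both ways: 53.2, 53.95 and 79.04 FPKM in Sangiovese PV berries, against 41.6, 37.1 and 34.4 FPKM in Cabernet Sauvignon (0.68, adjusted p = 0.0109), and 80.8, 84.1 and 55.7 FPKM in Sangiovese MR berries, against 150.4, 189 and 191 FPKM in Cabernet Sauvignon (-1.27, adjusted p = 8.38e-06). Neither pair of groups overlapped. The PV call ended without Sangiovese PV replicate 3 (adjusted p = 0.0991).

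Of the 4CL genes in Bolgheri 2012, VIT_11s0052g01090 had 55.2, 52.3 and 82.6 FPKM in Sangiovese PV berries, against 24.8, 22.4 and 20.4 FPKM in Cabernet Sauvignon (log2 difference 1.43, SE 0.27, adjusted p = 8.35e-06). At MR it had 17.6, 13.9 and 8.32 FPKM in Sangiovese, against 2.90, 5.45 and 4.70 FPKM in Cabernet Sauvignon (log2 difference 1.39, SE 0.27, adjusted p = 1.5e-05). The groups did not overlap at either stage. In every other environment where its cultivar difference passed, VIT_11s0052g01090 was lower in Sangiovese: at PV in Montalcino in 2012 (-1.02) and 2011 (-1.24) and in Riccione in 2011 (-0.78), and at MR in Montalcino in 2012 (-1.90), Riccione in 2012 (-1.35) and Bolgheri in 2011 (-0.71). In Montalcino MR berries of 2012 the values were 2.86, 2.26 and 1.89 FPKM in Sangiovese, against 12.1, 10.4 and 11.5 FPKM in Cabernet Sauvignon.

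VIT_02s0025g03660 passed in Bolgheri 2012 and in no other environment. It had 83.7, 77.5 and 85.9 FPKM in Sangiovese PV berries, against 42.1, 48.7 and 42.4 FPKM in Cabernet Sauvignon (log2 difference 0.88, SE 0.21, adjusted p = 0.000284). The MR difference was smaller (0.52, adjusted p = 0.029) and ended without Sangiovese replicate 1 or 2 or Cabernet Sauvignon replicate 1 or 3 of those groups (largest adjusted p = 0.217). VIT_16s0039g02040 had 54.5, 49.98 and 59.1 FPKM in Sangiovese PV berries, against 20.6, 19.95 and 22.8 FPKM in Cabernet Sauvignon (1.33, adjusted p = 3.25e-09), and did not pass at MR (-0.20, adjusted p = 0.333).

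VIT_16s0050g00390 went the other way at PV. Sangiovese PV berries from Bolgheri in 2012 had 23.6, 22.6 and 23.6 FPKM, against 51.2, 53.3 and 46.1 FPKM in Cabernet Sauvignon (-1.08, adjusted p = 7.12e-15). At MR Sangiovese had 114, 109.9 and 102 FPKM, against 48.2, 47.3 and 40.9 FPKM in Cabernet Sauvignon (1.24, adjusted p = 7.01e-17). Neither pair overlapped, and the sign was opposite at PV and MR. In 2011 the same area gave -0.89 at PV and 0.42 at MR, both past the threshold and of the same signs as in 2012.

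**Figure D4:**
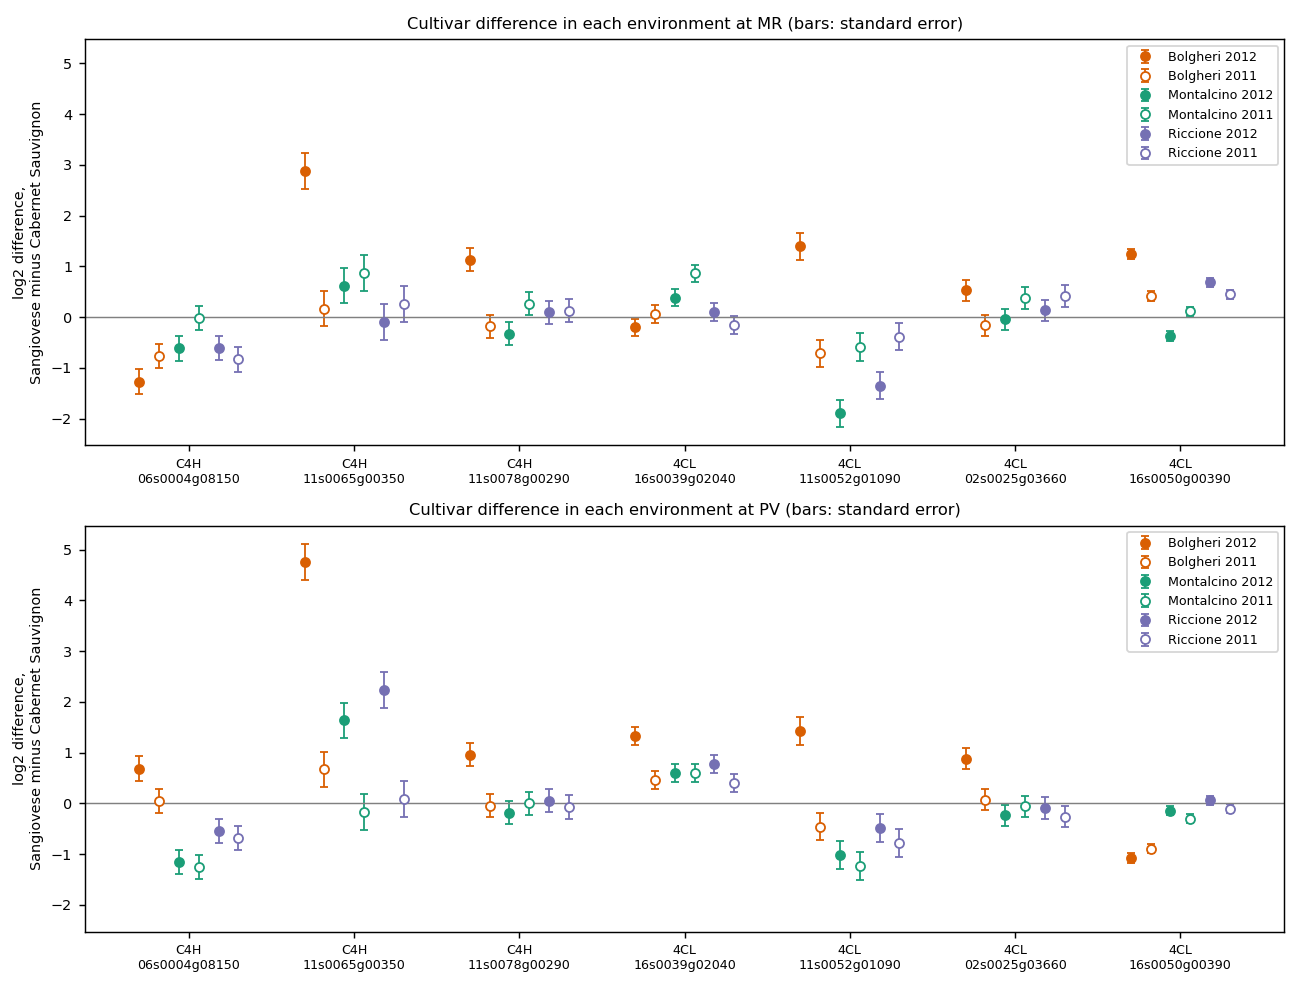
Cultivar difference, Sangiovese minus Cabernet Sauvignon, of each gene in each of the 6 environments, at MR (upper panel) and PV (lower panel), on the log2(FPKM + 1) scale with standard errors. Colours mark areas, and open circles mark 2011. VIT_11s0065g00350 reaches 4.75 in Bolgheri 2012 at PV, and VIT_11s0052g01090 is above 0 in Bolgheri 2012 and below 0 in all other environments.

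Fewer of the 7 genes passed elsewhere, as did fewer of all genes. In Bolgheri 2012, 64.1% of all genes passed at PV and 58.8% at MR in either direction. At PV the count was 2 of 7 in Bolgheri 2011 (52.4% of all genes), 4 in Montalcino 2012 (55.3% of all genes), 4 in Montalcino 2011 (49.3% of all genes), 2 in Riccione 2012 (50.8% of all genes) and 2 in Riccione 2011 (44.3% of all genes). Among them, VIT_11s0065g00350 was higher in Sangiovese in Riccione 2012 (2.22) and Montalcino 2012 (1.63), and VIT_16s0039g02040 was higher in 4 of these 5 environments, by 0.46 to 0.77. VIT_06s0004g08150 was lower in Sangiovese in both years in Montalcino (-1.16 in 2012 and -1.26 in 2011). The VIT_16s0039g02040 call in Bolgheri 2011 ended without Cabernet Sauvignon replicate 1 or Sangiovese replicate 2 (largest adjusted p = 0.17), and those of VIT_06s0004g08150 and VIT_11s0052g01090 in Riccione 2011 ended without replicate 1 of either cultivar (largest adjusted p = 0.2 and 0.149).

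At MR the count was 3 of 7 in Bolgheri 2011 (55.2% of all genes), 3 in Montalcino 2012 (52.3% of all genes), 2 in Montalcino 2011 (51.7% of all genes), 3 in Riccione 2012 (51.5% of all genes) and 2 in Riccione 2011 (48.4% of all genes). VIT_06s0004g08150 was lower in Sangiovese in 4 of these 5, with differences of -0.84 to -0.61. The exception was Montalcino 2011, with 121, 128 and 138 FPKM in Sangiovese and 112, 142 and 139.7 FPKM in Cabernet Sauvignon. VIT_16s0050g00390 was higher in Sangiovese in Riccione 2012 (0.68), Riccione 2011 (0.45, and 0.29 without Sangiovese replicate 1) and Bolgheri 2011, and lower in Montalcino 2012 (-0.37). Calls that rest on 1 library were those of VIT_06s0004g08150 in Bolgheri 2011 (Sangiovese replicate 1, adjusted p = 0.0878), Montalcino 2012 and Riccione 2012 (4 libraries each, largest adjusted p = 0.0704 and 0.118), of VIT_11s0052g01090 in Bolgheri 2011 (3 libraries, 0.227) and of VIT_11s0065g00350 in Montalcino 2011 (3 libraries, 0.579).

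Without the 4 Bolgheri 2012 groups, cultivar by environment passed for 3 genes at PV, VIT_06s0004g08150, VIT_11s0065g00350 and VIT_16s0050g00390, and for 3 at MR, VIT_16s0039g02040, VIT_11s0052g01090 and VIT_16s0050g00390. With all groups in, the PV call of VIT_11s0078g00290 ended without Sangiovese PV replicate 3 from Bolgheri in 2012 (adjusted p = 0.168), with a pseudocount of 5 (0.169) and under quantile normalization (0.255), and the MR call of VIT_06s0004g08150 (adjusted p = 0.0339) ended without any 1 of 6 libraries: Cabernet Sauvignon MR replicate 1 from Montalcino in 2011, Sangiovese MR replicates 2 and 3 from Montalcino in 2011, Sangiovese MR replicate 3 and Cabernet Sauvignon MR replicates 2 and 3 from Bolgheri in 2012 (largest adjusted p = 0.0999). Neither scaling kept that MR call (adjusted p = 0.0541 and 0.0883).

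The seasons were compared next. At PV, berries of 2012 were higher than those of 2011 in 3 of the 7 genes (25.1% of all genes) and lower in 1 (34% of all genes). The higher ones were the 4CL genes VIT_02s0025g03660 and VIT_16s0050g00390 and the minor C4H VIT_11s0065g00350, and the lower one was the main C4H VIT_06s0004g08150.

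VIT_02s0025g03660 separated the seasons completely at PV. Its lowest, median and highest libraries had 34.3, 61.3 and 85.9 FPKM in 2012, against 17.3, 23.1 and 31.9 FPKM in 2011 (n = 18 each). All 18 libraries of 2012 exceeded all 18 of 2011 (log2 difference 1.29, SE 0.086, adjusted p = 9.3e-19). In Bolgheri, Sangiovese had 83.7, 77.5 and 85.9 FPKM in 2012 against 31.9, 22.9 and 23.2 FPKM in 2011. In Riccione the Cabernet Sauvignon libraries of 2012 spread widely (79.4, 84.6 and 35.4 FPKM), but the lowest still exceeded the 2011 values of 20.6, 24.6 and 25.3 FPKM. The difference was 1.43 in Sangiovese and 1.16 in Cabernet Sauvignon, and the cultivar-by-year term did not pass (adjusted p = 0.273).

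VIT_16s0050g00390 was also higher in 2012 in 6 of 6 matched PV groups, none overlapping, by a smaller amount. Its lowest, median and highest libraries had 22.6, 29.6 and 53.3 FPKM in 2012, against 12.8, 22.4 and 31.9 FPKM in 2011 (log2 difference 0.49, SE 0.038, adjusted p = 1.63e-16). VIT_06s0004g08150 was lower in 2012 in 6 of 6 matched PV groups, 4 of them separate, with 20.7, 35.8 and 79.0 FPKM in 2012 against 25.8, 59.6 and 169 FPKM in 2011 (log2 difference -0.74, SE 0.098, adjusted p = 4.66e-09). In Bolgheri the Sangiovese libraries had 53.2, 53.95 and 79.04 FPKM in 2012 against 90.4, 165 and 96.9 FPKM in 2011, and those of Cabernet Sauvignon had 41.6, 37.1 and 34.4 FPKM in 2012 against 68.8, 169 and 113 FPKM in 2011. With group means as the unit, the call of VIT_02s0025g03660 was kept and those of VIT_11s0065g00350 and VIT_16s0050g00390 were not (adjusted p = 0.0786 and 0.108), where 7.99% of all genes were higher and 6.68% lower. Without Bolgheri 2012 VIT_16s0039g02040 passed too (0.32, adjusted p = 0.00206).

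The season difference of VIT_11s0065g00350 passed the test in Sangiovese only, and the difference between cultivars was tested below. At PV Sangiovese had 29.8, 24.9 and 47.7 FPKM in Bolgheri in 2012, against 4.43, 3.52 and 1.91 FPKM in 2011. Montalcino had 5.52, 5.04 and 10.96 FPKM in 2012 against 0.465, 0.297 and 0.301 FPKM in 2011, and Riccione had 12.2, 8.58 and 7.03 FPKM in 2012 against 0.546, 0.868 and 0.933 FPKM in 2011. The years did not overlap in any of the 3 areas (log2 difference 2.69, SE 0.20, adjusted p = 2e-16). Cabernet Sauvignon averaged 1.00 ± 0.700 FPKM in 2012 and 1.05 ± 1.03 FPKM in 2011 (SD, n = 9 each; log2 difference 0.0063, SE 0.20, adjusted p = 0.993). Its areas went opposite ways: Bolgheri averaged 0.283 FPKM in 2012 against 1.88 FPKM in 2011. Montalcino averaged 1.58 FPKM in 2012 against 0.547 FPKM in 2011, and Riccione 1.15 against 0.731 FPKM. The cultivar-by-year term was 2.68 (SE 0.29, adjusted p = 2.08e-10), and 1.97 without Bolgheri 2012 (adjusted p = 3.29e-05). With group means as the unit it did not pass (adjusted p = 0.351), and 0.108% of all genes had a positive term.

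By cultivar, 2012 was higher in 6 genes (24.1% of all genes) and lower in 1 (24.1% of all genes) in Sangiovese PV berries, and higher in 2 (19.6% of all genes) and lower in 1 (30.6% of all genes) in Cabernet Sauvignon PV berries. The cultivar-by-year term at PV was positive for 3 genes (18% of all genes) and negative for 0 (7.99% of all genes; 3 genes in all had an unadjusted p under 0.05). Beside VIT_11s0065g00350 these were VIT_11s0052g01090 (log2 difference 0.80, SE 0.22, adjusted p = 0.00486) and VIT_16s0039g02040 (log2 difference 0.41, SE 0.14, adjusted p = 0.0274). VIT_11s0052g01090 averaged 38.1 ± 20.8 FPKM in 2012 and 26.8 ± 13.2 FPKM in 2011 in Sangiovese, against 36.6 ± 11.4 FPKM in 2012 and 45.8 ± 13.4 FPKM in 2011 in Cabernet Sauvignon. Both terms missed the threshold without Bolgheri 2012 (0.25 and 0.18, adjusted p = 0.569 and 0.546), and that of VIT_16s0039g02040 also without Cabernet Sauvignon PV replicate 2 from Bolgheri in 2011 (adjusted p = 0.0542). The Sangiovese call of VIT_11s0078g00290 (0.36) ended without Sangiovese PV replicate 3 from Bolgheri in 2012 (adjusted p = 0.0757), with a pseudocount of 5 and under quantile normalization, and the gene entered the tests through the Sangiovese groups of Bolgheri 2012 counted here. The Sangiovese call of VIT_11s0052g01090 (0.47) ended without Bolgheri 2012. Of all cultivar-by-year calls at PV, 69.3% were positive as deposited, 55.3% with median-of-ratios scaling and 47.4% when quantile-normalized.

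At MR the seasons differed less. Berries of 2012 were higher in 1 gene (21.9% of all genes), VIT_11s0065g00350, and lower in 3 (19.6% of all genes), VIT_06s0004g08150, VIT_16s0039g02040 and VIT_11s0052g01090. The differences were 0.54 for VIT_11s0065g00350, -0.32 for VIT_06s0004g08150, -0.22 for VIT_16s0039g02040 and -0.39 for VIT_11s0052g01090 (adjusted p = 0.00193, 0.00639, 0.00985 and 0.00315). VIT_11s0065g00350 averaged 4.70 ± 6.62 FPKM in 2012 and 2.05 ± 1.53 FPKM in 2011. VIT_02s0025g03660, which parted the seasons at PV, averaged 22.3 ± 5.56 FPKM in 2012 and 18.9 ± 2.76 FPKM in 2011 at MR and did not pass (adjusted p = 0.0586). Without Bolgheri 2012, the calls of VIT_11s0065g00350 (0.25) and VIT_16s0039g02040 (-0.16) were lost, VIT_11s0052g01090 was at -0.68, and VIT_02s0025g03660 (0.34) and VIT_16s0050g00390 (0.36) passed. None of the 4 passed with group means as the unit, where 0.406% of all genes were higher and 0.103% lower. Without Sangiovese MR replicate 3 from Bolgheri in 2012 the number higher was 3.

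In Sangiovese MR berries 5 of the 7 genes passed (38% of all genes), VIT_11s0065g00350 and VIT_16s0050g00390 higher and VIT_06s0004g08150, VIT_16s0039g02040 and VIT_11s0052g01090 lower. In Cabernet Sauvignon MR berries 0 of the 7 passed in limma (34.2% of all genes), and 1 had an unadjusted p under 0.05, VIT_11s0052g01090 (-0.37). The cultivar-by-year term at MR was positive for 1 gene (12.9% of all genes), VIT_16s0050g00390 (log2 difference 0.19, SE 0.075, adjusted p = 0.0483), and negative for 0 (16.5% of all genes; 2 genes in all had an unadjusted p under 0.05). That call ended without any 1 of 38 of the 72 libraries and was -0.12 without Bolgheri 2012. In the same setting the term of VIT_11s0052g01090 was -1.13 and passed (adjusted p = 0.00224), so which gene was called depended on the Bolgheri groups of 2012. Among the Sangiovese calls, VIT_16s0050g00390 ended without any 1 of 5 libraries (largest adjusted p = 0.0894), VIT_11s0052g01090 without any 1 of 8, and VIT_16s0039g02040 without Sangiovese MR replicate 2 from Bolgheri in 2011 (adjusted p = 0.0576). The call of VIT_11s0052g01090 also ended with a pseudocount of 5, under quantile normalization and in a fit to MR libraries alone. Without Bolgheri 2012 the calls of VIT_11s0065g00350 and VIT_16s0039g02040 ended, with VIT_11s0065g00350 at 0.10, against 0.89 with all groups, where 1 of its 3 areas was higher in 2012 and 2 were lower. Of all MR cultivar-by-year calls, 44% were positive as deposited, 52.3% with median-of-ratios scaling and 57.5% when quantile-normalized.

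**Figure D5:**
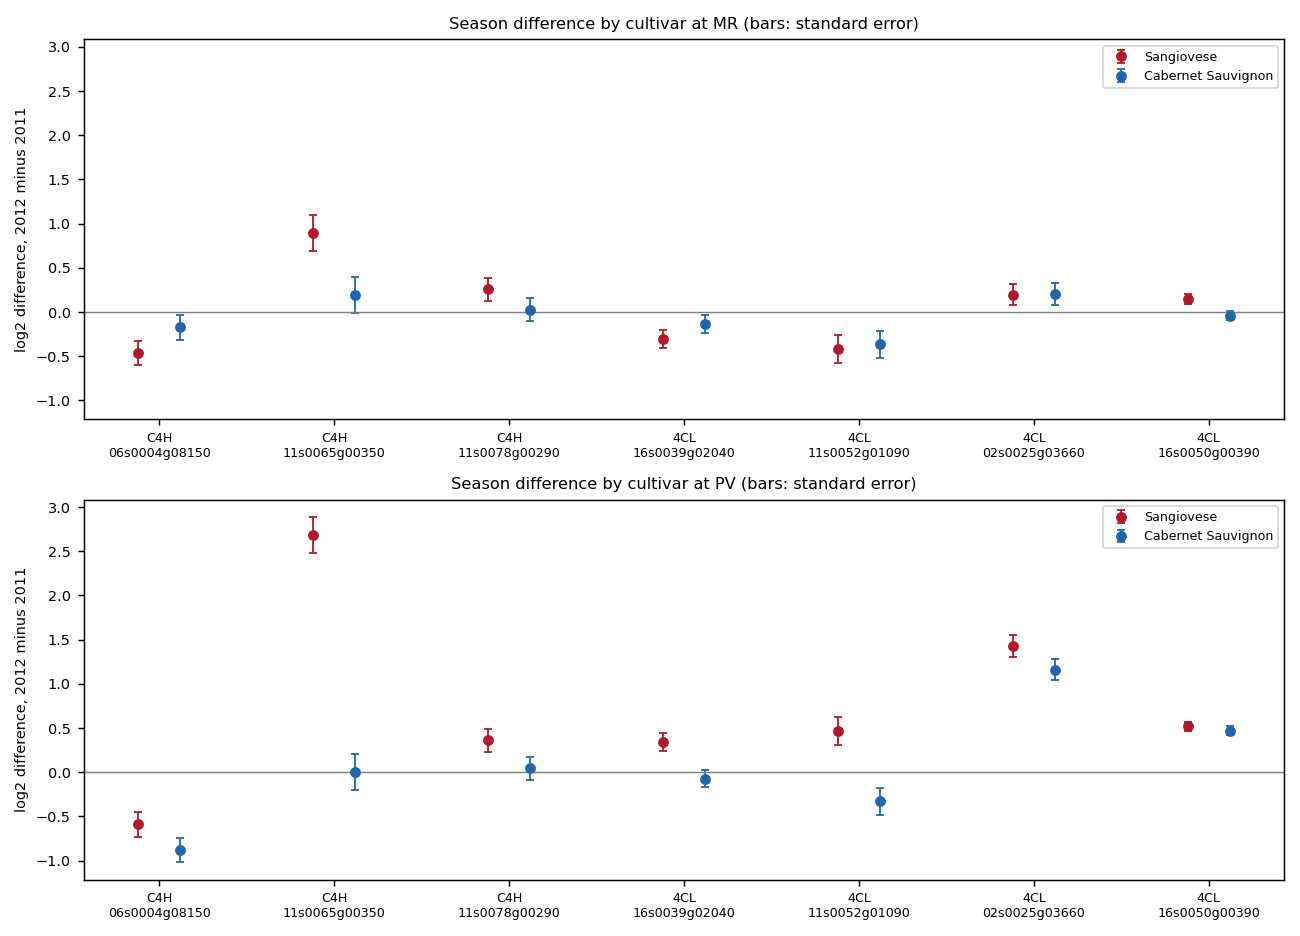
Season difference, 2012 minus 2011, of each gene in Sangiovese (red) and Cabernet Sauvignon (blue), at MR (upper panel) and PV (lower panel), on the log2(FPKM + 1) scale with standard errors. At PV VIT_02s0025g03660 stands above 1 in both cultivars, and VIT_11s0065g00350 stands at 2.69 in Sangiovese and 0.0063 in Cabernet Sauvignon.

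The growing areas were compared last. The F-test across the 3 areas passed for 5 of 7 genes at PV (62% of all genes), all but VIT_11s0078g00290 and VIT_02s0025g03660, and for 5 of 7 at MR (60.2% of all genes), all but VIT_11s0078g00290 and VIT_16s0039g02040. At PV, Bolgheri was higher than Riccione in 6 genes (21% of all genes) and lower in 0 (27.3% of all genes). VIT_02s0025g03660 did not pass (adjusted p = 0.364), and 6 genes had an unadjusted p under 0.05. Among the 6 called higher, VIT_11s0078g00290 entered the tests only through Sangiovese groups from Bolgheri. That entry favoured its call as higher there, so it adds no weight to the count. Montalcino was higher than Riccione in 1 gene, VIT_16s0050g00390 (13.2% of all genes), and lower in 0 (19.8% of all genes; 1 gene had an unadjusted p under 0.05).

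The main C4H VIT_06s0004g08150 had the largest area difference at PV. Its lowest, median and highest libraries had 34.4, 73.9 and 169 FPKM in Bolgheri, against 20.7, 39.2 and 97.6 FPKM in Montalcino and 21.7, 35.8 and 74.7 FPKM in Riccione (n = 12 each). Bolgheri was higher than Riccione in 4 of 4 matched groups, 2 of them separate (log2 difference 0.95, SE 0.12, adjusted p = 5.18e-09). The difference from Montalcino was 0.88 (adjusted p = 7.01e-08). Without Bolgheri 2012 both differences were larger, 1.16 over Riccione and 1.35 over Montalcino. The 4CL genes VIT_11s0052g01090 (0.51) and VIT_16s0039g02040 (0.44) and the C4H gene VIT_11s0065g00350 (0.71) were higher in Bolgheri too, each in 3 of 4 matched groups. The exception each time was Cabernet Sauvignon of 2012. There Bolgheri and Riccione averaged 22.5 and 39.1 FPKM for VIT_11s0052g01090, 21.1 and 21.6 FPKM for VIT_16s0039g02040, and 0.283 and 1.15 FPKM for VIT_11s0065g00350. The VIT_11s0078g00290 call (0.27, adjusted p = 0.0481) was favoured by its entry through the Sangiovese groups of Bolgheri 2012. It also ended without any 1 of 51 libraries. The call of VIT_16s0050g00390 (0.15) ended without Bolgheri 2012 (0.020). Without Bolgheri 2012 VIT_11s0052g01090 stood at 0.84. The area difference of VIT_16s0050g00390 had opposite signs in the cultivars, with no overlap in any of 4 matched groups. Sangiovese averaged 23.2 FPKM in Bolgheri against 28.5 FPKM in Riccione in 2012, and 15.2 against 19.8 FPKM in 2011. Cabernet Sauvignon averaged 50.2 FPKM in Bolgheri against 27.4 FPKM in Riccione in 2012, and 28.9 against 21.5 FPKM in 2011.

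At MR, Bolgheri was higher than Riccione in 3 genes (13.5% of all genes), VIT_06s0004g08150, VIT_11s0052g01090 and VIT_16s0050g00390, and lower in 1 (22.4% of all genes), VIT_02s0025g03660. Montalcino was higher than Riccione in the same 3 genes (23.6% of all genes) and lower in 0 (19.1% of all genes; 3 genes had an unadjusted p under 0.05). VIT_16s0050g00390 had 88.6, 106 and 150 FPKM as the lowest, median and highest Montalcino libraries, against 51.8, 65.3 and 109 FPKM in Riccione, and Montalcino was higher in 4 of 4 matched groups (log2 difference 0.59, SE 0.046, adjusted p = 6.61e-15). Its 12 Bolgheri libraries had 40.9, 98.0 and 129 FPKM, with the lowest 3 in Cabernet Sauvignon of 2012. Its difference of Bolgheri over Montalcino was -0.37 with all groups and 0.10 without Bolgheri 2012, and that of Bolgheri over Riccione was 0.22 with all groups and 0.67 without them.

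VIT_11s0052g01090 averaged 9.56 ± 5.27 FPKM in Montalcino, 7.83 ± 4.38 FPKM in Bolgheri and 4.95 ± 2.51 FPKM in Riccione at MR (Montalcino over Riccione, log2 difference 0.74, SE 0.14, adjusted p = 1.09e-05). Several MR area calls rested on few libraries. The Montalcino call of VIT_06s0004g08150 over Riccione (0.32) ended without replicate 1 of either cultivar from Riccione in 2011 or Cabernet Sauvignon replicate 3 from Riccione in 2012 (largest adjusted p = 0.0714). The Bolgheri call of VIT_02s0025g03660 (-0.26) ended without any 1 of 16 libraries and under both scalings, and the F-test of VIT_11s0065g00350 ended without any 1 of 21 libraries. Without Bolgheri 2012, the F-test at MR passed for 3 genes, VIT_06s0004g08150, VIT_11s0052g01090 and VIT_16s0050g00390, and the Bolgheri calls of VIT_06s0004g08150 (0.40), VIT_11s0052g01090 (0.28) and VIT_02s0025g03660 (-0.079) over Riccione were lost. No area F-test passed at either stage with group means as the unit (0 of 7, against 0.00489% of all genes at MR and 0.0147% at PV).

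The neighbouring enzymes of the pathway were listed from published locus names, which could not be checked here: 16 PAL IDs, of which 13 were tested, 3 CHS IDs and 56 STS IDs, of which 49 are in the table and 37 were tested. STS and PAL are families of very similar copies, so reads may be split among them. PAL, the step before C4H, was higher at MR in 3 and lower in 8 of 13, with a median of -0.41 against -0.23 over all genes, of which 33.4% were higher and 58.1% lower. The summed PAL level, not tested, averaged 89.15 ± 33.54 FPKM at MR and 55.39 ± 42.11 FPKM at PV in Sangiovese. In Cabernet Sauvignon it averaged 127.5 ± 27.33 FPKM at MR and 37.26 ± 23.27 FPKM at PV. Sangiovese from Bolgheri had 91.96 FPKM at MR and 106.4 FPKM at PV in 2012, and 104.9 and 105.5 FPKM in 2011. CHS was higher at MR in 3 of 3 (median 2.23), and STS was higher in 10 and lower in 18 of 37 (median -0.11). The main C4H and VIT_16s0050g00390 were thus higher at MR together with all 3 CHS IDs, in lists too short for more than this count. The leading CHS ID, VIT_05s0136g00260, averaged 695 ± 115 FPKM at MR and 107 ± 107 FPKM at PV in Sangiovese, against 1013 ± 251 FPKM at MR and 67.2 ± 59.5 FPKM at PV in Cabernet Sauvignon. The leading PAL ID, VIT_13s0019g04460, averaged 38.03 ± 16.96 FPKM at MR and 9.04 ± 6.29 FPKM at PV in Sangiovese, against 83.8 ± 16.7 FPKM at MR and 8.71 ± 5.71 FPKM at PV in Cabernet Sauvignon.

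Between cultivars at PV, Sangiovese was higher in 10 of 13 PAL (median 0.22, against 0.02 over all genes), 3 of 3 CHS (0.77) and 30 of 37 STS (0.47), and lower in 0 of each, against 39.2% of all genes higher and 34.8% lower. At MR it was higher in 6 and lower in 1 PAL (0.08, against 0.08 over all genes), higher in 1 and lower in 1 CHS (-0.09), and higher in 23 and lower in 0 STS (0.22), against 46.7% of all genes higher and 25.7% lower. In Bolgheri 2012, Sangiovese PV berries were higher in 13 of 13 PAL (1.82, against 0.05 over all genes), 3 of 3 CHS (2.26) and 36 of 37 STS (2.09), against 35.6% of all genes. At MR there, 8 PAL, 0 CHS and 37 STS were higher (31.5% of all genes) and 1 PAL, 1 CHS and 0 STS lower (27.4% of all genes). The summed STS level was 289 ± 145 FPKM at PV and 212 ± 90.2 FPKM at MR in Sangiovese from Bolgheri in 2012, against 8.92 ± 5.08 FPKM at PV and 3.15 ± 1.56 FPKM at MR in Cabernet Sauvignon. Genes were tested if they averaged at least 1 FPKM in at least 1 group. With such sums, STS IDs in particular may have entered through these Sangiovese groups, which favours their calls as higher in Sangiovese. How many listed IDs did so was not counted. The leading STS ID, VIT_10s0042g00860, averaged 2.08 ± 4.37 FPKM at MR and 10.3 ± 12.3 FPKM at PV in Sangiovese, against 0.592 ± 1.44 FPKM at MR and 1.26 ± 1.96 FPKM at PV in Cabernet Sauvignon.

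Between seasons at PV, 2012 was higher in 10 and lower in 2 of 13 PAL (median 0.40, against -0.03 over all genes), lower in 3 of 3 CHS (-1.39) and higher in 34 of 37 STS (0.69), against 25.1% of all genes higher and 34% lower. VIT_06s0004g08150 was thus lower in 2012 in the same comparison as the CHS IDs, and VIT_11s0065g00350, VIT_02s0025g03660 and VIT_16s0050g00390 were higher in the same comparison as most STS and PAL IDs. Summed STS in Sangiovese PV berries of 2012 was 69.01 ± 13.9 FPKM in Montalcino, against 3.36 ± 3.29 FPKM in 2011, and 102 ± 23.3 FPKM in Riccione, against 6.32 ± 4.04 FPKM in 2011. These are also the areas and year in which VIT_11s0065g00350 was high. The cultivar-by-year term was positive in 6 PAL (0.60, against 0.043 over all genes), 2 CHS (0.87) and 25 STS (0.86) and negative in 0 of each, against 18% of all genes positive and 7.99% negative. At MR, 2012 was higher in 7 and lower in 2 PAL (0.15, against 0.0029 over all genes), lower in 2 CHS (-0.39) and higher in 22 STS (0.24), against 21.9% of all genes higher and 19.6% lower. The limit of entry through the Sangiovese groups of Bolgheri 2012 holds for these list counts too.

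The genes most like 6 of the 7 were found by Pearson correlation of the 24 group means of log2(FPKM + 1), among 13471 other genes that averaged at least 10 FPKM in a group. VIT_11s0078g00290 never averaged that level and was left out. VIT_11s0065g00350 reached it in 2 groups only, both Sangiovese from Bolgheri in 2012. Summed STS was highest in the same groups (289 FPKM at PV and 212 FPKM at MR), so that entry favoured a likeness to STS IDs. The values describe shared patterns across groups of the same libraries, stage included. For VIT_11s0065g00350 the closest were VIT_10s0042g00870 (0.910) and VIT_16s0100g01000 (0.877), both on the STS list, and for VIT_06s0004g08150 they were VIT_10s0405g00040 (0.899) and VIT_13s0019g04460 (0.876), the leading PAL ID. For the 4CL genes they were VIT_14s0108g01330 (0.945) and VIT_07s0005g04380 (0.933) for VIT_11s0052g01090, VIT_06s0004g01570 (0.964) and VIT_01s0146g00480 (0.962) for VIT_02s0025g03660, VIT_07s0031g00190 (0.955) and VIT_16s0050g00950 (0.945) for VIT_16s0050g00390, and VIT_11s0037g00570 (0.926) and VIT_13s0064g01370 (0.897) for VIT_16s0039g02040. None of these 8 is on the PAL, CHS or STS lists.

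The same was done for deviations from the mean of each cultivar and stage, which leaves the pattern across areas and years. VIT_11s0065g00350 was again closest to STS-list IDs, VIT_10s0042g00870 (0.941) and VIT_10s0042g00920 (0.936), over the 24 groups. Its entry through the Sangiovese groups from Bolgheri in 2012 favoured this likeness as well. The closest to VIT_11s0052g01090 was the PAL-list ID VIT_08s0040g01710 (0.905), followed by VIT_09s0018g01190 (0.862). VIT_06s0004g08150 was closest to VIT_13s0067g02870 (0.943) and VIT_04s0023g03370 (0.939), and VIT_02s0025g03660 to VIT_12s0028g03550 (0.962) and VIT_06s0004g01570 (0.956). VIT_16s0039g02040 and VIT_16s0050g00390 had no partner above 0.8, with VIT_01s0011g02960 (0.760) and VIT_13s0067g01240 (0.740) for VIT_16s0039g02040 and VIT_08s0007g05350 (0.784) and VIT_11s0016g03180 (0.781) for VIT_16s0050g00390.

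Among the 7 genes, VIT_11s0065g00350 and VIT_11s0078g00290 had the most similar group means (0.783 over 24 groups, 0.818 for the deviations). Outside Sangiovese from Bolgheri in 2012, VIT_11s0078g00290 averaged at most 0.354 FPKM. The groups that brought it into the tests were also the 2 highest of VIT_11s0065g00350, so this likeness was favoured by that entry. VIT_16s0039g02040 and VIT_11s0052g01090 followed over the 24 groups (0.668, and 0.343 for the deviations). VIT_16s0050g00390 ran opposite to both of these (-0.745 with VIT_16s0039g02040 and -0.754 with VIT_11s0052g01090), as did VIT_02s0025g03660 and VIT_06s0004g08150 with each other (-0.645). For the deviations these values were -0.095, 0.127 and -0.390. The opposition of VIT_16s0050g00390 thus lay mostly between the means of cultivar and stage. That of VIT_02s0025g03660 and VIT_06s0004g08150 was partly kept across areas and years. Next for the deviations came VIT_11s0078g00290 with VIT_11s0052g01090 (0.732) and VIT_11s0065g00350 with VIT_02s0025g03660 (0.645). VIT_11s0052g01090 was highest in Sangiovese PV berries from Bolgheri in 2012 (63.4 FPKM), so the entry of VIT_11s0078g00290 favoured their likeness too.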

How the data were processed

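The authors deposited 1 table of FPKM values for 29971 gene IDs in 72 libraries, from non-directional TruSeq libraries per the labels' protocols, so that strand is not known and reads of overlapping genes or near-identical copies may be shared. Per the submitters' processing notes, CASAVA 1.8.2, TopHat2 2.0.9 and Cufflinks 2.1.1 were used. Neither build nor annotation is named there (not given in the sources used here). All columns were matched to samples by name (0 unused), and replicates were numbered in accession order, which pairs nothing.

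From these values, log2(FPKM + 1) was fitted with limma 3.58.1 (R 4.3.3, moderated variances with a trend) to the means of 24 groups, with 48 residual degrees of freedom. Genes had to average at least 1 FPKM in at least 1 group (20443 genes). Differences were contrasts of group means, area and cultivar-by-environment terms were F-tests, and p-values were Benjamini-Hochberg adjusted over all tested genes at 0.05. The step was tested on simulated data. Absolute depth is unknown, so no counting intervals are given.

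All 7 genes are named, as are the PAL, CHS and STS IDs with the highest mean and the 2 genes most like each of the 6 members that averaged at least 10 FPKM in a group. The members and lists were chosen with earlier results of these data known. Alternatives were other pseudocounts, filters and scalings, robust spread, group means as the unit, and leaving out Bolgheri 2012, the other stage or each library.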

Additional observations from a re-analysis of the deposited data

Results flagged for a closer look

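Several results differed between the cultivars under the same contrast, by a test of the difference itself in limma. The stage difference (MR minus PV) of VIT_16s0050g00390 was larger in Sangiovese than in Cabernet Sauvignon by 0.8335 on the log2 scale, whereas that of VIT_11s0065g00350 was smaller by a term of -0.7471 and that of VIT_16s0039g02040 by a term of -0.5159. The season difference (2012 minus 2011) at PV was larger in Sangiovese by 2.6788 for VIT_11s0065g00350, 0.7984 for VIT_11s0052g01090 and 0.4099 for VIT_16s0039g02040, and at MR by 0.1919 for VIT_16s0050g00390. Without Bolgheri 2012 this MR term was -0.1242, and the PV terms of VIT_11s0052g01090 and VIT_16s0039g02040 missed the threshold. With group means as the unit, no season term and no negative stage term passed.

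The cultivar difference also varied over the 6 environments (F-test, adjusted p). At PV the adjusted p was 6.94e-06 for VIT_06s0004g08150, 8.26e-12 for VIT_11s0065g00350, 0.0173 for VIT_11s0078g00290, 0.011 for VIT_16s0039g02040, 3.77e-07 for VIT_11s0052g01090, 0.00662 for VIT_02s0025g03660 and 2.31e-11 for VIT_16s0050g00390. At MR it was 0.0339 for VIT_06s0004g08150, 7.99e-06 for VIT_11s0065g00350, 0.00166 for VIT_11s0078g00290, 0.00156 for VIT_16s0039g02040, 6.99e-09 for VIT_11s0052g01090 and 2.18e-13 for VIT_16s0050g00390. Groups of 3 libraries are too small for a test of single outlying libraries.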

How the results depend on the processing

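No paired analysis was possible because the labels give no replicate numbers. The stage directions of the 5 genes called were the same under every alternative run. The number of the 7 genes higher at MR was 4 with a pseudocount of 0.1 and with quantile normalization, against 2. The number with a positive cultivar-by-year term at MR was 1, against 2 with a pseudocount of 5, median-of-ratios scaling or quantile normalization, 0 with no filter, group means as the unit, without Bolgheri 2012 or fitted to 1 stage, and 0 to 2 when 1 library was left out. The number higher in Sangiovese at MR was 4, against 2 under both scalings.

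With group means as the unit, which leaves fewer values, 0 genes had a negative cultivar-by-stage term, 0 were lower in Sangiovese at PV, 0 higher and 1 lower at MR, 1 was higher in 2012 at PV, 0 higher and 0 lower at MR, 0 passed for area at PV or MR, and 0 had a positive cultivar-by-year term at PV. Of all tested genes, 8.23% had a negative cultivar-by-stage term in that setting and 7.99% were higher in 2012 at PV. In Sangiovese 19% were lower at PV, and 26.6% were higher and 13% lower at MR. Few of all tested genes passed there for year at MR (0.406% higher, 0.103% lower), for cultivar by year at PV (0.108% positive, and 0 genes at MR) or for area (0.0147% at PV and 0.00489% at MR). Without Bolgheri 2012, 2 genes were higher in 2012 at MR, 1 had a positive cultivar-by-year term at PV and 1 a negative one at MR, and 3 passed for area at MR and for cultivar by environment at PV and at MR. VIT_11s0078g00290 left the tests there and with a filter of 5 FPKM. In a fit to 1 stage, 5 genes were higher in 2012 at PV and 2 at MR. With both stages fitted the MR number was 1, and it ran between 1 and 3 when 1 library was left out.

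Reversed signs were found for 6 genes, most in values near 0. With a pseudocount of 5 they were the stage difference of VIT_11s0065g00350 (-0.0643) and, for VIT_11s0052g01090, the terms of cultivar by stage (0.0299) and cultivar by year at MR (0.0604, and 0.0258 under quantile normalization). The last term of VIT_02s0025g03660 was 0.0223 under median-of-ratios scaling and 0.0301 under quantile normalization, and the stage difference of VIT_11s0065g00350 in Sangiovese was 0.0924 under quantile normalization too. Without Bolgheri 2012, cultivar by stage was 0.1514 for VIT_06s0004g08150. For VIT_02s0025g03660 the cultivar difference at PV was then -0.1187 and cultivar by year at PV -0.0044. Cultivar by year at MR was -0.3066 for VIT_11s0065g00350 and -0.1242 for VIT_16s0050g00390, whose difference of Bolgheri over Montalcino at MR was 0.1013. When 1 library was left out, cultivar by stage of VIT_11s0078g00290 lay between -0.04 and 0.1358, the cultivar difference of VIT_02s0025g03660 at PV between -0.0185 and 0.0949, and cultivar by year at MR between -0.0693 and 0.0539 for VIT_02s0025g03660 and between -0.196 and 0.0466 for VIT_11s0052g01090. The causes were not tested. Limits of the data are the 3 libraries per group, of unknown origin, the unknown read depth, and the 1 area sampling per year behind every season and area value.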
